A study of Mus musculus with 6 samples.

Results

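Uox, Urah, Xdh, Gda, Pnp, Ada, Hprt and Aox1 are genes of purine breakdown and of closely related reactions, and their transcripts were followed in the inguinal white adipose tissue (subcutaneous groin fat) of C57BL/6 mice. The members are the rows of the deposited count table that carry these 8 symbols, 8 of 52550 genes, and all 8 passed the filter on low counts. They were chosen with results of the same comparison in view, because the counts of Uox spread widely among the treated libraries. The levels and fold changes of the members are therefore given as a description, without a test.

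In the A2B1 group (3 libraries), the pads had been injected with adeno-associated virus that delivered the coding region of mouse Hnrnpa2b1, whose product binds RNA and takes part in splicing. In the control group (3 libraries), they had received virus with a scrambled control, which the design text also calls AAV GFP. The sources used here do not give the promoter of the virus, the sex and age of the mice, or whether each library came from its own animal, so the spread between libraries may be technical in part. The labels name adipocytes as the source and whole fat tissue as the tissue. Total counts were 72961324 to 86663359 per library. Hnrnpa2b1 had 763, 789 and 748 CPM (read counts scaled to library size and composition) in A2B1 libraries and 555, 525 and 605 CPM in controls, so every A2B1 library lay above every control. The difference was 0.45 on the log2 scale with an SE of 0.09, and its adjusted p was 0.0654 by edgeR's quasi-likelihood method, 0.0496 by limma-voom and 0.000113 by DESeq2. These counts can hold viral and endogenous transcript together. The adipocyte markers were present in every library, with Fabp4 at 16384 to 17450 CPM in A2B1 libraries and 15699 to 16988 CPM in controls.

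Purines are broken down in a short series of steps. Adenosine deaminase (Ada) makes inosine from adenosine, purine nucleoside phosphorylase (Pnp) splits inosine and guanosine into hypoxanthine and guanine, guanine deaminase (Gda) turns guanine into xanthine, and hypoxanthine-guanine phosphoribosyltransferase (Hprt) returns the free bases to nucleotides. Xanthine dehydrogenase (Xdh) oxidises hypoxanthine and xanthine to urate, where the pathway ends in humans. In mice urate oxidase (Uox), a liver enzyme of peroxisomes that releases hydrogen peroxide, carries urate on to 5-hydroxyisourate, 5-hydroxyisourate hydrolase (Urah) takes the next step, and Urad completes allantoin. Aldehyde oxidase 1 (Aox1) is a molybdenum enzyme related to Xdh.

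2 libraries stood apart in a way that bears directly on Uox. The 20 hepatocyte genes on the marker list, such as albumin (Alb) and the fibrinogen chains, summed to 15417, 127 and 1777 CPM in A2B1 libraries 1, 2 and 3, against 188, 167 and 274 CPM in control libraries 1, 2 and 3. All 20 had the same order among the A2B1 libraries, with library 1 highest and library 2 lowest, and none was at 0 in any library. In A2B1 library 1 they took 1.41% of all counts. Of the 20, 0 passed edgeR's test or limma-voom. All 20 had an unadjusted p under 0.05 in edgeR's test (24.2% of all tested genes), and DESeq2 called 20 higher (1332 of all 19146). The 20 varied together, so they are not 20 separate results. In a principal component analysis the leading axis held 52.8% of the variance. It placed A2B1 libraries 1, 2 and 3 at -107.6, 18.1 and -50.6, and control libraries 1, 2 and 3 at 69.6, 44.3 and 26.4. Every A2B1 library thus lay below every control on this axis, with A2B1 library 2 nearest to the controls. The genes that carry the axis were not examined. In bulk tissue a change in the number of cells of a type and a change in RNA per cell cannot be told apart. Whether the hepatocyte RNA came from the pad or was carried over from liver cannot be told from these counts either, and was not tested.

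Sequences upstream of the start sites are shown for Uox and Urah, which varied together, and for the neighbouring pair Aox3 and Aox1, of which the first varied with Uox and the second did not. Each is the 250 bases before the RefSeq start on GRCm38.p6 (mm10), plus strand, 5′ to 3′, and capitals mark a match to the C/EBP motif TTGCNNAA on either strand.
Uox, chr3:146596899-146597148: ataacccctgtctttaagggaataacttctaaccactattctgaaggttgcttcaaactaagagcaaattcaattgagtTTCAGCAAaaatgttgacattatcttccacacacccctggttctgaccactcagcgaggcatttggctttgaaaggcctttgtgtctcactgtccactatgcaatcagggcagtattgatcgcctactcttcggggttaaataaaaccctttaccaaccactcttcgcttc
Urah, chr7:140834888-140835137: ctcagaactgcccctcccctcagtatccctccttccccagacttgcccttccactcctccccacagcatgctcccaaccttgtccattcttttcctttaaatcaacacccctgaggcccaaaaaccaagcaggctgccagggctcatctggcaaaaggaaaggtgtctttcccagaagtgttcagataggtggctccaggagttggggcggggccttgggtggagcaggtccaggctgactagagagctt
Aox3, chr1:58112886-58113135: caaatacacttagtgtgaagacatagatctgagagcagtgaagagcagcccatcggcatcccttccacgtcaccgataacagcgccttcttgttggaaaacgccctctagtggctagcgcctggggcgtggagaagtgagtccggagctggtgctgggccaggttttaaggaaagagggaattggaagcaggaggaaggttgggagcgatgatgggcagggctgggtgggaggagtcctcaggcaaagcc
Aox1, chr1:58029719-58029968: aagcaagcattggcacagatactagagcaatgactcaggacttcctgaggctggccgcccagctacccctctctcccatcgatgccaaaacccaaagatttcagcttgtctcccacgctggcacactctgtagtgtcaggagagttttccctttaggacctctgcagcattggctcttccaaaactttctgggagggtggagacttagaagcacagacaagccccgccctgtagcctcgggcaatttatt
Of 5 motifs searched on both strands, the C/EBP motif had 1 match, in the Uox window and beginning 171 bases before the start, and 9.56% of 32851 windows of the same length held it. The full HNF1 motif, its shorter form GTTAAT, the HNF4 motif CAAAGTCCA and the TATA motif TATAAA had 0 matches in the 4 windows, and 0.103%, 6.43%, 0.384% and 12.4% of all windows held them. GTTAAT is contained in the full HNF1 motif, and a match describes letters, not a bound factor. Of the 8 members, 7 had a window in the table used, and Urah had 2, of which 1 is shown. The RefSeq start of Uox lies inside the longer span that GENCODE gives the gene below. The windows of Urah, Aox3 and Aox1 also run past the GENCODE starts of these genes, at 140835018, 58113130 and 58029931.

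Uox (ENSMUSG00000028186, mm10 chromosome 3, 146570426 to 146632305, plus strand) was high in 2 of the 3 A2B1 libraries and low in the third. Its read counts were 14238, 76 and 1771 in A2B1 libraries 1, 2 and 3, against 171, 179 and 310 in control libraries 1, 2 and 3. As normalized counts these were 206, 0.956 and 23.8 CPM in A2B1 libraries and 2.27, 2.01 and 3.70 CPM in controls. A2B1 library 1 thus had 77.5 times the control level (95% counting interval 71.7 to 83.9), A2B1 library 3 had 8.95 times (8.18 to 9.81), and A2B1 library 2 had 0.359 times (0.280 to 0.456). The groups overlapped, because A2B1 library 2 lay below all 3 controls while libraries 1 and 3 lay above them. The intervals describe counting error and nothing else, since no molecular identifiers are described for these libraries.

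The mean of Uox was 77.0 ± 112 CPM in A2B1 libraries and 2.66 ± 0.912 CPM in controls (SD, n = 3 each), so the SD of the A2B1 libraries exceeded their mean. The fitted log2 fold change of A2B1 over control was 4.85 (SE 1.79). Without A2B1 library 1 it was 2.23, and with A2B1 library 2 alone against the 3 controls, a setting chosen after the values were seen, it was -1.46. Limma-voom with sample quality weights put it at 2.69, and the cause of this lower value was not tested. The direction of the Uox difference therefore rested on A2B1 libraries 1 and 3. Among the A2B1 libraries the SD of its log2 CPM was 3.88, the 55th largest of 19146 tested genes, against 0.46 among the controls. The median over all tested genes was 0.21 in either group. This spread entered the choice of the members, so the rank of Uox is a description and no separate result.

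**Figure D1:**
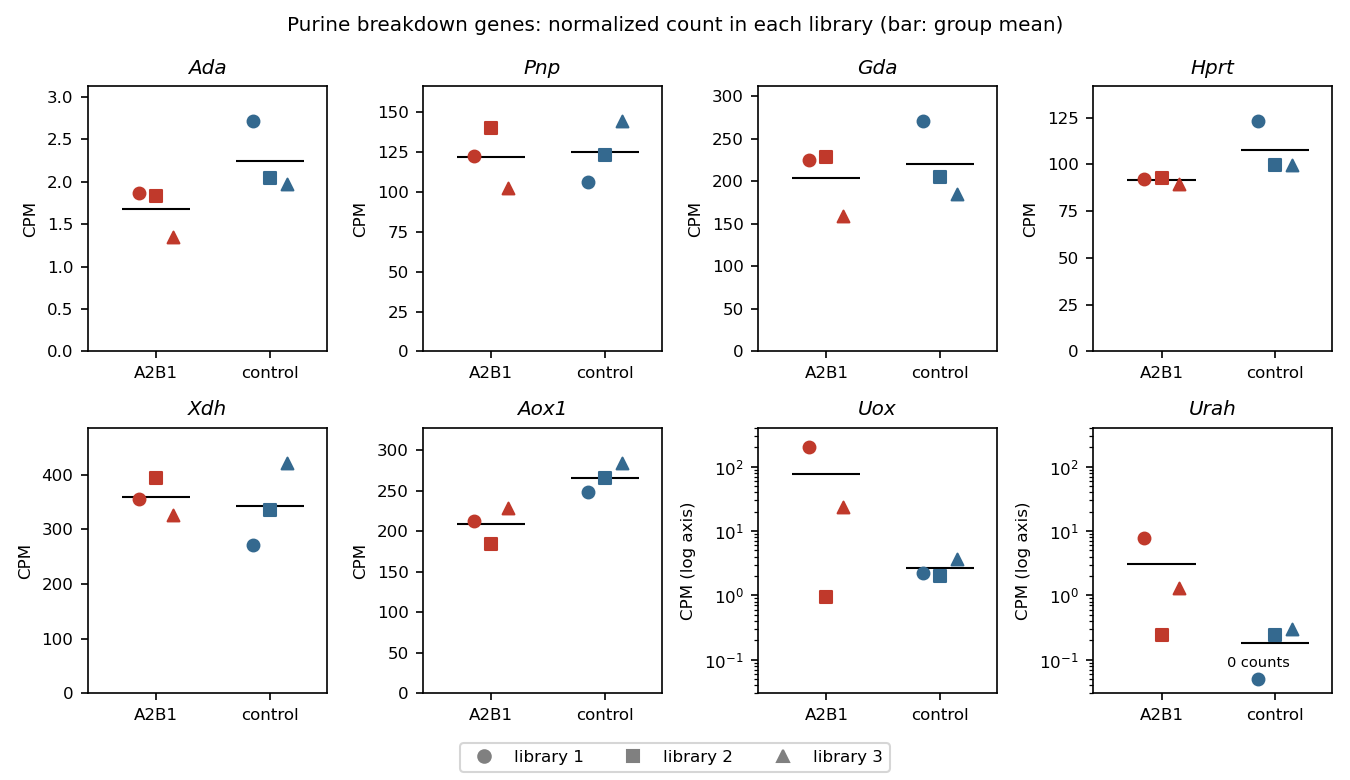
Normalized read count (CPM) of the 8 genes in each library, A2B1 in red on the left and control in blue on the right, with a marker shape for each library number and a bar at the group mean; the 2 panels at the lower right, Uox and Urah, have a log axis, on which the 0 counts of Urah in control library 1 are marked near the bottom, and the other 6 start at 0. Uox reached 206 CPM in A2B1 library 1 and 0.956 CPM in A2B1 library 2, while Xdh stayed between 271 and 422 CPM in all 6 libraries.

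Uox followed the hepatocyte genes across the libraries. Relative to the mean of the controls, the 20 hepatocyte genes had a median level of 78.1 times in A2B1 library 1 (range 47.0 to 179), 0.611 times in library 2 (0.222 to 0.954) and 8.44 times in library 3 (3.64 to 21.8), and the 3 values of Uox given above lie inside these ranges. Per 1000 counts of the 20 hepatocyte genes, Uox had 13.4, 7.54 and 13.4 counts in A2B1 libraries 1, 2 and 3 and 12.0, 12.0 and 13.5 counts in control libraries 1, 2 and 3. The ratio was thus of similar size in 5 libraries and lower in A2B1 library 2, while the Uox level itself differed 216-fold between the highest and lowest A2B1 library. The part of hepatocyte RNA in the Uox difference was not tested further.

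Set against albumin alone, the ratios spread somewhat more. Uox had 33.0, 14.2 and 29.5 counts per 1000 Alb counts in A2B1 libraries 1, 2 and 3, and 22.3, 23.2 and 24.2 in control libraries 1, 2 and 3. The 95% counting intervals of A2B1 library 1 (32.5 to 33.6) and library 3 (28.1 to 30.9) lay above those of the controls, which together ran from 19.0 to 27.1, and that of A2B1 library 2 (11.2 to 17.9) lay below. The 3 controls had overlapping intervals.

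**Figure D2:**
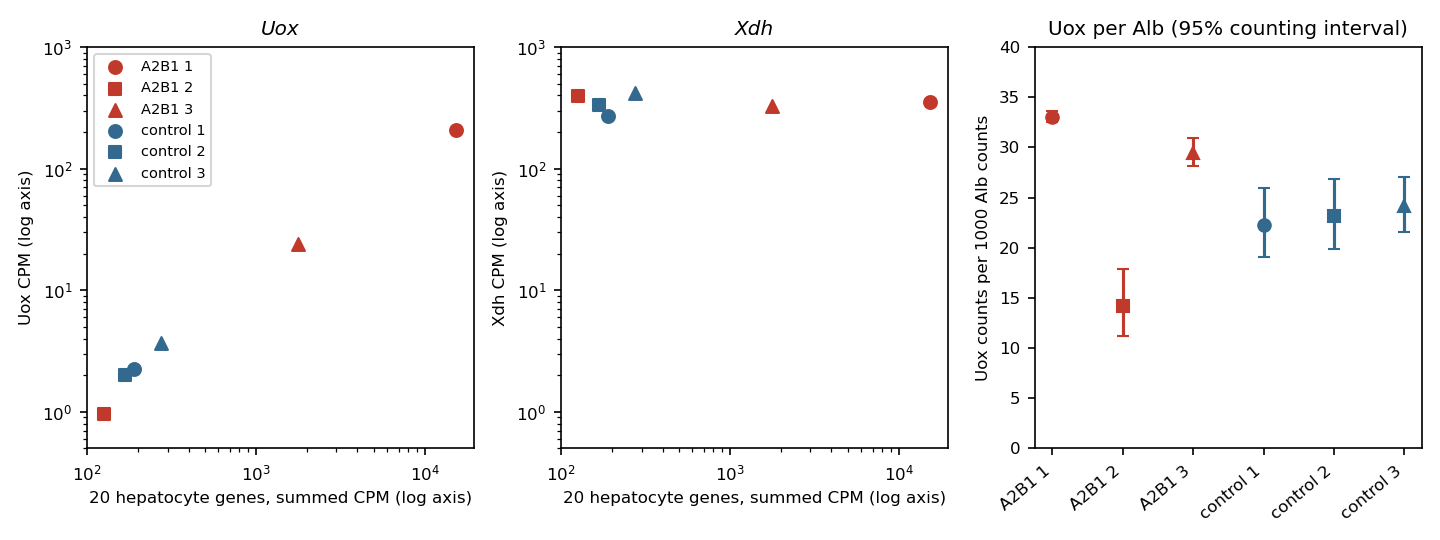
Uox (left) and Xdh (middle) in CPM against the summed CPM of 20 hepatocyte genes, with log axes and 1 point per library, and Uox counts per 1000 Alb counts with 95% counting intervals (right); red is A2B1 and blue is control. Uox was higher where the hepatocyte sum, which spanned 127 to 15417 CPM, was higher, Xdh stayed between 271 and 422 CPM, and the Uox to Alb ratio stayed between 14.2 and 33.0.

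The genes whose pattern was most like that of Uox were chosen by Pearson's r of log2 CPM over the 6 libraries, among 13286 tested genes with a mean log2 CPM of at least 1. They were Hsd3b5 (r = 0.9993), Fbp1 (r = 0.9991), Acsm1 (r = 0.9989), Rgn (r = 0.9985) and Hamp (r = 0.9985). Fbp1 encodes fructose-1,6-bisphosphatase of gluconeogenesis and Hamp the iron hormone hepcidin. In all, 302 of the 13286 genes had an r above 0.95, and the 20 hepatocyte genes had an r of 0.979 to 0.998. With 6 points, of which A2B1 libraries 1 and 3 carry most of the range, r serves here only to rank genes by likeness.

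Urah (ENSMUSG00000025481, chromosome 7, 140835018 to 140837966, plus strand) had few reads and the same order among the A2B1 libraries. Its counts were 538, 19 and 96 in A2B1 libraries 1, 2 and 3 and 0, 22 and 25 in control libraries 1, 2 and 3. A2B1 library 1 stood at 41.1 times the control level (95% counting interval 30.5 to 56.7) and library 3 at 6.82 times (4.76 to 9.88). A2B1 library 2 stood at 1.26 times the control level, with an interval of 0.699 to 2.19, so no difference was detectable at this depth, and the groups overlapped. The ratio of summed counts, A2B1 over control, was 15.5 (95% counting interval 11.5 to 21.3). Of the 653 A2B1 counts in this ratio, 538 came from library 1. The intervals for Urah describe counting error and not the spread between libraries. The fitted log2 fold change of 4.07 (SE 1.62) became 2.06 without A2B1 library 1 and 0.40 with A2B1 library 2 alone. Exons of Urah overlap C330022C24Rik on the other strand, and no source used here says whether counting used strand, so this count is uncertain. Urah had 1.25, 3.56 and 1.60 counts per 1000 Alb counts in A2B1 libraries 1, 2 and 3, and 0, 2.85 and 1.95 in control libraries 1, 2 and 3, where the 0 counts of control library 1 have an upper counting bound of 0.481.

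Urad, the enzyme after Urah, is not among the members and was singled out after its values were seen. It had 147, 0 and 19 counts in A2B1 libraries 1, 2 and 3 and 0, 3 and 0 counts in control libraries 1, 2 and 3, too few to pass the filter. The 3 enzymes from urate to allantoin had the same order among the A2B1 libraries. All 20 hepatocyte genes also had that order, so it is not particular to these enzymes.

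Xdh (ENSMUSG00000024066, chromosome 17, 73883895 to 73950196, minus strand), the enzyme that makes urate, was abundant in every library and did not share that order. It had 356, 395 and 327 CPM in A2B1 libraries 1, 2 and 3 and 271, 336 and 422 CPM in control libraries 1, 2 and 3. A2B1 library 2, with the least Uox, had the most Xdh of its group, and the groups overlapped. Means were 359 ± 34.2 CPM in A2B1 libraries and 343 ± 76.1 CPM in controls (SD, n = 3 each), with a log2 fold change of 0.07 (SE 0.17). Leaving out 1 library moved this between -0.07 and 0.24.

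Per kilobase of merged exon, the relation of Uox to Xdh changed with the library. In A2B1 library 1 the level of Uox was 41.2 CPM per kb beside 38.8 for Xdh. In A2B1 library 2 it was 0.191 beside 43.0, and in A2B1 library 3 it was 4.76 beside 35.6. The controls had 0.401 to 0.740 CPM per kb of Uox and 29.5 to 46.0 of Xdh. By this measure Uox was as abundant as Xdh in 1 library and a minor transcript in the other 5. The measure depends on the merged exon lengths used, 5.007 kb for Uox and 9.175 kb for Xdh, which need not be those of the main transcripts. Without division by length, A2B1 library 1 had 206 CPM of Uox and 356 CPM of Xdh.

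Gda (ENSMUSG00000058624, chromosome 19, 21391307 to 21473445, minus strand), which feeds xanthine into the pathway from guanine, had 225, 229 and 159 CPM in A2B1 libraries 1, 2 and 3 and 271, 205 and 185 CPM in control libraries 1, 2 and 3. The lowest value belonged to A2B1 library 3 and the highest to control library 1, with overlapping groups. The log2 fold change was -0.11 (SE 0.20), and it ran from -0.22 to 0.07 when 1 library was left out.

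Pnp (ENSMUSG00000021871, chromosome 14) had 122, 140.2 and 102 CPM in A2B1 libraries 1, 2 and 3 and 106, 123 and 145 CPM in control libraries 1, 2 and 3, a log2 fold change of -0.04 (SE 0.16). The groups overlapped over most of their range. In GENCODE M21 this gene ID belongs to the model Gm49342, which shares exons with Pnp and with its close neighbour Pnp2, so the division of reads among them is uncertain. Pnp2 had 12.1, 13.3 and 10.3 CPM in A2B1 libraries and 11.3, 12.9 and 17.4 CPM in controls (log2 fold change -0.22, adjusted p = 0.516 in edgeR's test).

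Ada, Hprt and Aox1 were the members whose groups did not overlap, each lower in A2B1 libraries. Ada (ENSMUSG00000017697, chromosome 2, 163726584 to 163750239, minus strand) was scarce, with 1.87, 1.84 and 1.34 CPM in A2B1 libraries 1, 2 and 3 and 2.72, 2.04 and 1.97 CPM in control libraries 1, 2 and 3. The nearest values were 1.87 and 1.97, and the log2 fold change was -0.41 (SE 0.24). Ada is also abundant in lymphocytes, and the 12 lymphocyte and lymph node markers summed to 6.07 to 11.7 CPM in A2B1 libraries and to 270.1, 41.0 and 7.96 CPM in control libraries 1, 2 and 3. The order of the 3 controls was the same for Ada and for this sum, that of the A2B1 libraries was not, and the part of lymphocytes in the difference was not tested.

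Hprt (ENSMUSG00000025630, chromosome X, 52988137 to 53021659, plus strand), often used as a reference gene, had 92.0, 92.7 and 89.8 CPM in A2B1 libraries 1, 2 and 3 and 123, 99.9 and 99.8 CPM in control libraries 1, 2 and 3. The A2B1 libraries were nearly equal, and control library 1 stood above the rest. The log2 fold change was -0.24 (SE 0.10), and -0.12 without control library 1. The SD of its log2 CPM among the A2B1 libraries was 0.024, rank 18808 of 19146 from the largest.

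Aox1 (ENSMUSG00000063558, chromosome 1, 58029931 to 58106413, plus strand) had 213, 184 and 228 CPM in A2B1 libraries 1, 2 and 3 and 249, 265 and 284 CPM in control libraries 1, 2 and 3. Every A2B1 library lay below every control. The log2 fold change was -0.35 (SE 0.11), -0.27 to -0.41 with 1 library left out and -0.51 with A2B1 library 2 alone. The difference was thus as large without A2B1 libraries 1 and 3 as with them.

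The neighbouring paralog Aox3, the aldehyde oxidase known from mouse liver, behaved differently from Aox1. It had 7162, 158 and 1632 counts in A2B1 libraries 1, 2 and 3 and 247, 267 and 192 in control libraries 1, 2 and 3, the order of Uox among the A2B1 libraries. Its log2 fold change was 3.90 (SE 1.35, adjusted p = 0.173 in edgeR's test and 0.0182 in DESeq2), and -0.50 with A2B1 library 2 alone. Per 1000 Alb counts Aox3 had 16.6, 29.6 and 27.2 counts in A2B1 libraries and 32.2, 34.5 and 15.0 in controls. Aox2 and Aox4 had at most 0.159 and 0.385 CPM in any library.

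**Figure D3:**
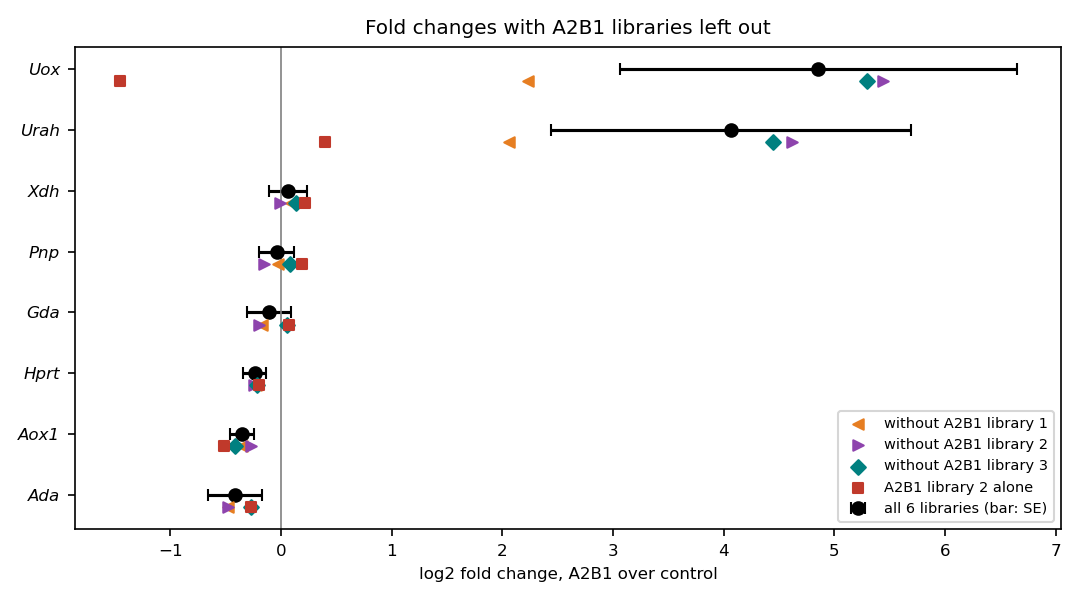
Log2 fold change, A2B1 over control, of the 8 genes from all 6 libraries (black, bar 1 SE), with each A2B1 library left out in turn and with A2B1 library 2 alone against the controls. The value for Uox was 4.85 with all libraries, 2.23 without A2B1 library 1 and -1.46 with library 2 alone, while Aox1 stayed between -0.27 and -0.51.

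By edgeR's quasi-likelihood test, adjusted over all 19146 tested genes at a threshold of 0.05, 0 of the 8 members were called, where 1.82% of all tested genes were. At an unadjusted p of 0.05 the count was 3 (24.2% of all tested genes), DESeq2 called 2, Uox and Aox1 (15.2%), and limma-voom called 0 (2.69%). Groups did not overlap in 3 of 8, against 30.6% of all tested genes. Since this contrast entered the choice of the members, these counts are given only to place them in the whole table. Their log2 fold changes had a median of -0.07, against 0.0021 over all tested genes, with 3 above 0 and 5 below.

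Ordered by level per kilobase in A2B1 libraries, Hprt averaged 71.0 CPM per kb, Xdh 39.1, Gda 32.8, Aox1 24.0, Uox 15.4, Urah 2.18 and Ada 0.841. In controls Hprt averaged 83.6, Xdh 37.4, Gda 35.4, Aox1 30.6, Ada 1.12, Uox 0.531 and Urah 0.127 CPM per kb. Xdh and Gda, next to each other in both orders, overlapped in both groups. Gda and Aox1 overlapped in both as well, and the A2B1 libraries of Uox spanned the levels of Xdh, Gda and Aox1. Both orders depend on the merged exon lengths used. No level per length is given for Pnp, whose gene model is uncertain.

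The rest of purine metabolism was compared through 6 lists of 102 genes, of which 101 were in the table and 83 passed the filter. Of the 83, 0 rose and 1 fell in edgeR's test, where 0.496% of all tested genes rose and 1.33% fell. DESeq2 called 13 higher and 4 lower (15.2% of all tested genes were called in either direction, 1332 higher and 1587 lower), and limma-voom 0 higher and 2 lower (2.69%). An unadjusted p under 0.05 was found in 20 of the 83, against 24.2% of all tested genes. Groups did not overlap in 24 of the 83, against 30.6%, and the median log2 fold change was 0.06, against 0.0021 over all tested genes. The counts at an unadjusted p and of groups that did not overlap were thus near those of the whole table.

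Ampd3, an AMP deaminase that opens the route from AMP to IMP, was the gene that fell. It had 20.7, 22.8 and 21.6 CPM in A2B1 libraries 1, 2 and 3 and 33.8, 33.8 and 38.3 CPM in control libraries 1, 2 and 3, so the groups lay far apart and each was tight. Its log2 fold change was -0.70 (SE 0.09, adjusted p = 0.0268 in edgeR's test), and -0.61 with A2B1 library 2 alone. The adjusted p was 0.0645 to 0.112 with any 1 library left out, which ended the call each time. Because exons of Ampd3 overlap Gm47282 on its own strand, and Rnf141 and B430319F04Rik on the opposite one, the count is uncertain.

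Among the 20 tested genes of purine breakdown 1 fell and 19 did not pass (median 0.11). Nt5e, the cell-surface nucleotidase that makes adenosine, had a log2 fold change of -0.22 (adjusted p = 0.577), and Mocos, which activates the molybdenum cofactor of Xdh and the aldehyde oxidases, had 0.26 (adjusted p = 0.357), both in edgeR's test. Among 11 salvage genes 0 of 11 passed (median 0.03, or -0.14 without A2B1 library 1). Adk, the kinase that returns adenosine to AMP, had 145, 72.5 and 73.4 CPM in A2B1 libraries 1, 2 and 3 and 81.7, 72.4 and 91.0 CPM in control libraries 1, 2 and 3, so 1 library stood apart. Adk's log2 fold change was 0.25 (adjusted p = 0.639), and that of Aprt, the adenine counterpart of Hprt, was 0.09 (adjusted p = 0.834). The adenylate kinase Ak4 had a log2 fold change of 1.56 (adjusted p = 0.158 in edgeR's test), with 7.93 CPM in A2B1 library 1 and at most 3.05 in the others.

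Of 19 tested genes of purine synthesis, 0 passed in edgeR's test and 5 had an unadjusted p under 0.05, where 24.2% of all tested genes did (median 0.03). Prps2, which makes the ribose donor phosphoribosyl pyrophosphate, had 15.5, 14.1 and 12.2 CPM in A2B1 libraries 1, 2 and 3 and 24.7, 21.4 and 21.3 CPM in control libraries 1, 2 and 3. Its log2 fold change was -0.69 (SE 0.13) and its adjusted p was 0.055 by edgeR, 0.044 by limma-voom and 0.00016 by DESeq2. Gmpr, the GMP reductase, had -0.63 (SE 0.13, adjusted p = 0.0676 in edgeR's test). Both had groups that did not overlap.

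In the list of purine and urate transport 0 of 11 tested genes passed (median 0.14, or -0.06 without A2B1 library 1). Slc2a9, a urate transporter, had 3.45, 4.20 and 4.42 CPM in A2B1 libraries 1, 2 and 3 and 5.69, 5.50 and 4.83 CPM in control libraries 1, 2 and 3 (log2 fold change -0.41, adjusted p = 0.209 in edgeR's test). Abcg2, an exporter of urate, had a log2 fold change of 0.14 (adjusted p = 0.709) and the nucleoside transporter Slc29a1 one of -0.0060 (adjusted p = 0.991). Slc17a2 and Slc17a3 had 5.63 and 4.63 (adjusted p = 0.163 and 0.158), with 27.6 and 13.5 CPM in A2B1 library 1 and at most 2.84 and 1.69 in any other.

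Of 14 tested genes of extracellular ATP and adenosine handling 0 passed (median -0.15). Entpd1, which removes phosphate from extracellular ATP, had 24.4, 22.2 and 18.3 CPM in A2B1 libraries 1, 2 and 3 and 29.7, 39.6 and 27.8 CPM in control libraries 1, 2 and 3 (log2 fold change -0.58, adjusted p = 0.132 in edgeR's test). Entpd8 had 8.40 CPM in A2B1 library 1 and at most 1.44 in the others (4.23, adjusted p = 0.178).

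Of the 8 tested peroxisomal oxidases and catalase 0 passed in edgeR's test, 5 had an unadjusted p under 0.05 (24.2% of all tested genes) and DESeq2 called 5 higher (1332 of all 19146). Their median was 0.47 with all libraries, where all 8 were above 0. It was 0.37 without A2B1 library 1 and 0.06 with A2B1 library 2 alone. Cat, the catalase that removes the hydrogen peroxide Uox releases, had 1385, 1163 and 1229 CPM in A2B1 libraries 1, 2 and 3 and 1031, 1059 and 999 CPM in control libraries 1, 2 and 3. All A2B1 libraries lay above all controls, with a log2 fold change of 0.29 (SE 0.10) and an adjusted p of 0.163 in edgeR's test and 0.0402 in DESeq2. Paox, a polyamine oxidase, had a log2 fold change of 0.62 (adjusted p = 0.0806 in edgeR's test). Acox2, an oxidase of bile acid synthesis, had 20.2, 0.314 and 3.95 CPM in A2B1 libraries 1, 2 and 3 and 0.265, 0.370 and 0.287 CPM in control libraries 1, 2 and 3.

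A limit on r was set after the values were seen. Of the 13286 tested genes with a mean log2 CPM of at least 1, 462 had an r above 0.9 with Uox over the 6 libraries. Without that limit on level, 10 of the 83 genes did: Aox3, Mocos, Ak4, Slc17a2, Slc17a3, Slc22a7, Entpd8, Acox2, Hao1 and Pipox. Their log2 fold changes ran from 0.26 to 5.63 with all libraries, from 0.11 to 2.89 without A2B1 library 1, and, with A2B1 library 2 alone, from -0.50 to 0.55 in 9 of them. The tenth, Slc22a7, had 0 counts in that library and a fitted value of -6.72, which depends on the prior count. Among the A2B1 libraries all 10 were highest in library 1 and lowest in library 2, as was the summed hepatocyte level given above. Because r with Uox chose these genes, that order was largely fixed in advance and is no separate result. The order among the controls differed between genes.

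**Figure D4:**
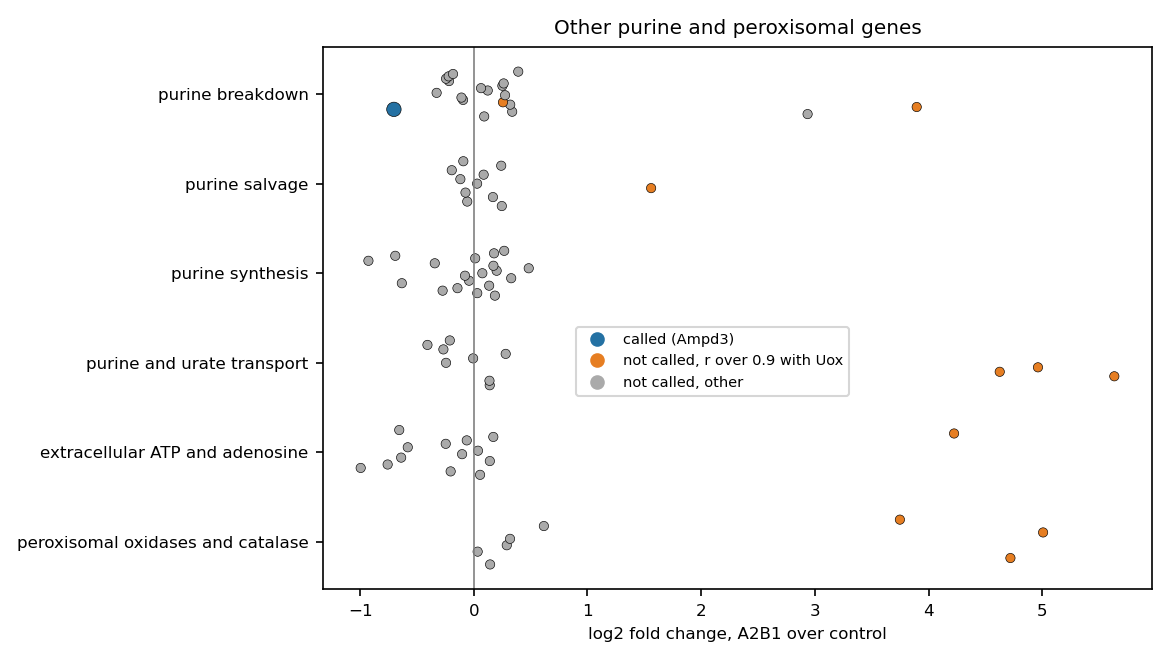
Log2 fold change, A2B1 over control, of the 83 tested genes in 6 lists of purine metabolism, transport and peroxisomal oxidation, 1 point per gene and 1 row per list. Ampd3 (blue, at -0.70) is the gene that passed the test, and the 10 genes in orange had an r above 0.9 with Uox.

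The annotated neighbours of Uox were examined by position. Dnase2b, which lies inside the span of Uox on the other strand without sharing exons (146580985 to 146615596), had 209, 9 and 22 counts in A2B1 libraries 1, 2 and 3 and 3, 3 and 0 in control libraries 1, 2 and 3. Rpf1, on the side before Uox, had 16.4, 16.8 and 16.0 CPM in A2B1 libraries and 15.7, 15.1 and 13.5 CPM in controls. Gm36259, also before Uox, had 0 counts in every library, and Gm16325, after Uox, had 0, 0 and 3 counts in A2B1 libraries and 15, 7 and 9 in controls. High counts in A2B1 library 1 were thus seen in Dnase2b and not in the other 3 neighbours.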

How the data were processed

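Frozen fat was extracted with Trizol and libraries were built with a TruSeq kit from Illumina, per the labels' protocols. The submitters' processing notes name Bowtie and mm10; no source used here names the counting program, annotation or strand setting. The authors deposited raw read counts per gene for 52550 genes, 1 column per library, and 0 columns of other samples. Groups come from the treatment in the labels.

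Counts were analysed in R 4.3.3 with edgeR 4.0.16 (filterByExpr, TMM scaling, robust quasi-likelihood F test, group as the only term, two-sided, Benjamini-Hochberg over 19146 tested genes, 0.05). SEs of log2 fold changes were derived as the absolute value over the root of F. The fit was first tested on simulated counts, where it called 30 of 50 genes given a 4-fold change. A gene that did not pass may therefore still differ. Alternatives were DESeq2 1.42.0, limma-voom (limma 3.58.1), other scalings and filters, and each library left out. Intervals of count ratios are exact (Clopper-Pearson, 95%). Merged exon lengths, overlaps and coordinates are from GENCODE M21 (52403 IDs matched), and promoter windows from RefSeq, GRCm38.p6. Named were the 8 members, fixed pathway genes and paralogs, called or else the 2 lowest-p genes of each list, the 5 genes most like Uox, its neighbours and other genes marked as chosen later; some genes under this rule are not reported here. The members, lists and motifs were chosen with earlier results of these data known.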

Additional observations from a re-analysis of the deposited data

How the results depend on the processing

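No paired analysis was possible because the labels give the groups no shared replicate numbers. Over all genes 95 rose and 254 fell. Library totals gave 49 higher, limma-voom 164, the CPM filter 147 and DESeq2 1332, with 1587 lower in DESeq2. Leaving out 1 library left 2 to 12 higher and 7 to 45 lower, the fewest without an A2B1 library, and A2B1 library 2 alone, added after the data were seen, left 0 and 0; fewer libraries enter these fits. Of the purine genes, 1 was lower; library totals, upper-quartile factors, limma-voom and the CPM filter gave 2, DESeq2 gave 4 lower and 13 higher, and every fit without 1 library, and A2B1 library 2 alone, gave 0 (range 0 to 0). Hepatocyte markers had 0 calls except 20 higher in DESeq2. Of the other markers 2 were higher and 3 lower; DESeq2 gave 13 and 18, leaving out 1 library 0 to 1 and 0 to 1, and A2B1 library 2 alone 0 and 0. With that library alone the log2 fold changes were -1.46 for Uox, 0.40 for Urah, 0.19 for Pnp and -0.51 for Aox1; under the other alternatives each of the 8 members moved by less than the spread between libraries, and Urah was not tested under the CPM filter. Counts of 0 to 25 limit the precision of Urah in A2B1 library 2 and the 3 controls. The cause of the differences between tools was not tested.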

Other observations

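Other marker lists also varied by library, and the genes named from them, other than those that passed the test, were chosen after their values were seen. Elovl3 and Kng2, on the thermogenic list, had 60.5 and 36.2 CPM in A2B1 library 1, 0.340 and 0.503 in library 2 and 5.79 and 3.55 in library 3, against at most 3.83 and 1.23 CPM in controls. This was the order of the summed hepatocyte level among the A2B1 libraries. Cidea and Cox8b, on the same list, were high in all 3 A2B1 libraries (59.3 to 91.7 and 28.1 to 43.8 CPM) against 12.6 to 21.3 and 7.69 to 11.6 CPM in controls. These 2 of 10 tested genes passed edgeR's test, where 0.496% of all tested genes rose. The 10 had a median log2 fold change of 1.48, with 9 above 0 and 1 below, Dio2 at -0.54. Ucp1 had 3.59, 8.43 and 7.73 CPM in A2B1 libraries 1, 2 and 3 and at most 0.650 CPM in controls. Among mammary epithelial markers Krt8 and Krt18 had 18.3 and 20.6 CPM in A2B1 library 1, 0.579 and 0.415 in library 2 and 4.02 and 2.65 in library 3. Controls had at most 0.502 and 0.451 CPM. Krt8 and Krt18 thus also had the order of the summed hepatocyte level among the A2B1 libraries. Prlr, on the same list, had 5.27, 1.33 and 1.60 CPM in A2B1 libraries 1, 2 and 3 and 11.7, 9.65 and 13.0 CPM in control libraries 1, 2 and 3, a log2 fold change of -2.07, and that of Epcam was 0.04, while Krt14, Wap and Csn3 had 0 counts in all 6; of the 5 tested, 0 passed.

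Macrophage markers summed to 343, 546 and 251 CPM in A2B1 libraries 1, 2 and 3 and to 945, 689 and 604 CPM in controls, with 8 of 8 tested genes negative and 0 passing. Endothelial markers summed to 958, 792 and 774 CPM in A2B1 libraries and to 988, 1317 and 904 CPM in controls, with 0 of 8 passing. Skeletal muscle markers summed to 3.55 to 14.0 CPM in A2B1 libraries and to 22.5, 26.6 and 159 CPM in controls, with Pvalb lower among 6 tested genes. Adipocyte markers summed to 34531 to 36066 CPM in A2B1 libraries and to 31290 to 36943 CPM in controls, with Lep and Cidec lower among 10. Of 11 tested lymphocyte and lymph node genes 0 passed. Over all tested genes 0.496% rose and 1.33% fell in edgeR's test, and the median log2 fold change was 0.0021.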
